A study of Rattus norvegicus with 125 samples.

Results

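The genes of glutathione, glucuronide and sulfate conjugation were followed along the rat renal tubule in 67 gene symbols out of 17144 in the table. They are the symbols for glutathione transferases (Gst, 22 symbols), UDP-glucuronosyltransferases (Ugt1, 8, and Ugt2, 9), sulfotransferases (Sult, 14) and glutathione peroxidases (Gpx, 8). To these were added 5 genes of glutathione synthesis and recycling (Gclc, Gclm, Gss, Gsr and Ggt1) and Glyat, which conjugates glycine. The symbols were chosen by a rule on names, set with earlier results of these data known. For a symbol with several transcript entries (72 entries in all) the entry with the highest mean was used. No symbol of the Ugt3 family met the rule.

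Levels are in RPKM, read counts scaled to the length of the transcript and the reads of the library, from RNA sequencing of tubule segments dissected by hand after collagenase digestion of the left kidney of male Sprague-Dawley rats of 200 to 250 g. The libraries come from 14 segments. They are the proximal tubule parts S1, S2 and S3 (n = 7 each), the descending thin limbs SDL (n = 10), LDLOM (n = 9) and LDLIM (n = 4), and tAL (n = 7), the ascending part of the thin limb. The thick ascending limb gave mTAL and cTAL (n = 7 each), followed by the distal convoluted tubule DCT (n = 8) and connecting tubule CNT (n = 6), and the collecting duct gave CCD (n = 11), OMCD (n = 7) and IMCD (n = 8). SDL is the descending limb of short loops, LDLOM and LDLIM are those of long loops in the outer and inner medulla, and CCD, OMCD and IMCD are the cortical, outer medullary and inner medullary ducts. A further 5 libraries are glomeruli, and 8 are CCD from a water-load experiment in 5-week-old rats. In that experiment all rats received the vasopressin analog DDAVP at 5 ng/h from minipumps, and 4 were given 50 mL and 4 controls 25 mL of water a day in gelled food, for 4 days. The labels of the glomeruli carry the protocol of that experiment, and whether they came from such rats is not stated. The labels do not say that the libraries of a segment came from different rats, so p-values among segments measure the spread between libraries, part of which may be technical. The 7 whole-kidney samples sequenced at polyadenylation sites were not analysed here.

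Conjugation makes reactive or poorly soluble compounds fit for excretion by joining them to glutathione, glucuronic acid, sulfate or glycine. Glutathione is made from glutamate, cysteine and glycine by glutamate-cysteine ligase and glutathione synthetase, is used by transferases and peroxidases, and is regenerated from its oxidized form by glutathione reductase. At the cell surface, gamma-glutamyltransferase opens the breakdown of glutathione and of its conjugates, which end as mercapturic acids in the urine. The proximal tubule is known as the main site of these reactions in the kidney.

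For 57 of the 67 symbols, RefSeq (build GRCr8) holds a promoter, taken here as the 250 bases before the annotated start. The motif TGACNNNGC, the core of the antioxidant response element bound by Nrf2, was searched on both strands. It occurred in 7 of the 57 promoters (12.3%), against 10.1% of all 33469 promoters of that length. Among the 23 members with a promoter that were higher in the proximal tubule, 2 held it (8.7%), Gclm and Gstz1. Of the 7 genes, Gclm, Gpx2, Gsta3, Gstm7, Gstp1 and Gstz1 passed the filter on low values, and Gstm5 was listed at 0 in every tubule library. Gpx2, Gclm and Gstp1 are shown because each was called within the proximal tubule or between outer and inner medulla, and the capitals mark the motif on either strand. The Gpx2 promoter lies at chr6:101230034-101230283 (minus strand), that of Gclm at chr2:213031885-213032134 (plus strand) and that of Gstp1 at chr1:210769706-210769955 (minus strand). The matches begin 13, 172 and 61 bases before the start, respectively.
Gpx2: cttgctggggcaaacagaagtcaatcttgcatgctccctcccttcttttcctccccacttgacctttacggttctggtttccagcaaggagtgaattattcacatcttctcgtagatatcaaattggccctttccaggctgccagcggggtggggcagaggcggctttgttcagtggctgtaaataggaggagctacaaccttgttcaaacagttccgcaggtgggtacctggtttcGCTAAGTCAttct
Gclm: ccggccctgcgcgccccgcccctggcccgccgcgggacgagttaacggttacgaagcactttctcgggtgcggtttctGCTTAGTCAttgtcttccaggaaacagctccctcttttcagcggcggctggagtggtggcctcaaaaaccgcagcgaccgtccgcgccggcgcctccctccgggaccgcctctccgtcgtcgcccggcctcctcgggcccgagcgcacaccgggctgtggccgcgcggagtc
Gstp1: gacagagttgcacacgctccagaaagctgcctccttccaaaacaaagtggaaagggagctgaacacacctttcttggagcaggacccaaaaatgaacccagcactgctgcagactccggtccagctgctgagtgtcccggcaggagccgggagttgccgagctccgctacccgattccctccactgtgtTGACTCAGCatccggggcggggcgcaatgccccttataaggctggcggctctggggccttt

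The motif GTTAAT, which forms one side of the palindromic site of the hepatocyte nuclear factor HNF1, occurred on either strand in 8 of the 57 promoters (14.0%), against 6.45% of all promoters. It was found upstream of Ugt1a1, Ugt1a2, Ugt1a3, Ugt1a6, Gsta3, Sult2a2, Sult2a6 and Ugt2a3. In RefSeq the 8 Ugt1 symbols end at the same base, so they form 1 locus with a common end, and their starts and promoters differ. Ugt1a1 and Ugt1a6 are shown because their promoters differ while their RPKM correlated at 0.999 or more on the log2 scale. The Ugt1a1 promoter lies at chr9:96248893-96249142 and that of Ugt1a6 at chr9:96194768-96195017, both on the plus strand. The motif, in capitals, begins 63 bases before the start of Ugt1a1, and 190 and 29 bases before that of Ugt1a6. Each of the 5 promoters shown holds only the motif marked in it, of the 2 searched.
Ugt1a1: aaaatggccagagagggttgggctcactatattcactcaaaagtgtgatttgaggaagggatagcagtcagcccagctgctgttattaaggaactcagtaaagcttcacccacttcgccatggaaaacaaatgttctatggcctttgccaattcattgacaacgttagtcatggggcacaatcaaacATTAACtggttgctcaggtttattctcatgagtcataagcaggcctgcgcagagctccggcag
Ugt1a6: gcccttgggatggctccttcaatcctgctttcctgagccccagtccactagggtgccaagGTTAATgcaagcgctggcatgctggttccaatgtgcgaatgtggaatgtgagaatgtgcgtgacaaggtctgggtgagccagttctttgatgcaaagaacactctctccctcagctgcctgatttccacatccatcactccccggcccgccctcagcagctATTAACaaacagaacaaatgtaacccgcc

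Libraries differed widely in what they detected. Between 1438 and 8574 genes reached 1 RPKM in a tubule library, and 14 of these libraries had fewer than 2500. The relative depth read from the steps of low values differed 14.2-fold over the 103 libraries where it could be read. The summed RPKM of 11 proximal markers (the list without Aqp1, which thin limbs also express) was between 229.6 and 8979.9 in the proximal libraries, with a median of at most 47.2 in any other segment. A few libraries outside the proximal tubule also held proximal RNA. The highest sums were 2331 RPKM in LDLOM number 1, 402 in mTAL number 3, 329.9 in OMCD number 7, 309 in SDL number 1 and 266 in LDLOM number 3. For Slc34a1, the phosphate carrier of the proximal brush border, LDLOM number 1 had 2329 RPKM, SDL number 1 had 286 and OMCD number 7 had 286. Within the proximal tubule, S1 number 5 had 207 RPKM of Slc7a13, a transporter of late proximal parts, against at most 4.99 in the other S1 libraries. In the opposite sense, S2 number 6 had 0.0586 RPKM of Slc7a13, against at least 36.7 in the other S2 libraries. For Slc5a2, a glucose carrier of early proximal parts, S2 number 6 had 649 RPKM, against at most 58.4 in the other S2 libraries. S1 number 5 had 6.77, within the wide range of S1. The Slc7a13 level of each was thus nearer to that of the other segment. Whether their labels were exchanged was not tested, and differences of members called from S1 are also given without both. S3 number 7 had the lowest sum of the proximal markers in S3, 714 RPKM. It had the highest sum of thin limb markers there, 10754, against 482 to 4734 in the other S3 libraries.

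Most of the conjugation genes that could be tested differed among segments, and more had their highest mean in S3 than in any other segment. Of the 67 members, 44 reached at least 1 RPKM in at least 4 libraries and were tested, 18 stayed below 1 RPKM in every tubule library, and 8 of these were listed at 0 throughout. The other 5 reached 1 RPKM in 1 to 3 libraries. The moderated F test of limma over 14 segments, with Benjamini-Hochberg adjustment over all 11078 genes tested, called 38 of the 44 members, while 41.5% of all genes tested were called. The 6 not called were Gpx7, Gpx8, Gstm4, Gstm7, Gstt2 and Sult4a1. The highest mean was in S3 for 18 members, in S1 and S2 for 6 each, in OMCD and IMCD for 4 each, in mTAL and DCT for 2 each, and in SDL and CCD for 1 each. The 8 Ugt1 symbols make up part of the 18 in S3. The members took a median of 6.54% of all RPKM in S1, 4.85% in S2 and 4.92% in S3, and no more than 1.36% in any other segment. Their summed RPKM had medians of 26835 in S1, 17125 in S2 and 18415 in S3. Gpx3 alone had medians of 17551, 6339 and 572 RPKM there. The 8 Ugt1 symbols of 1 locus each counted in these sums.

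**Figure D1:**
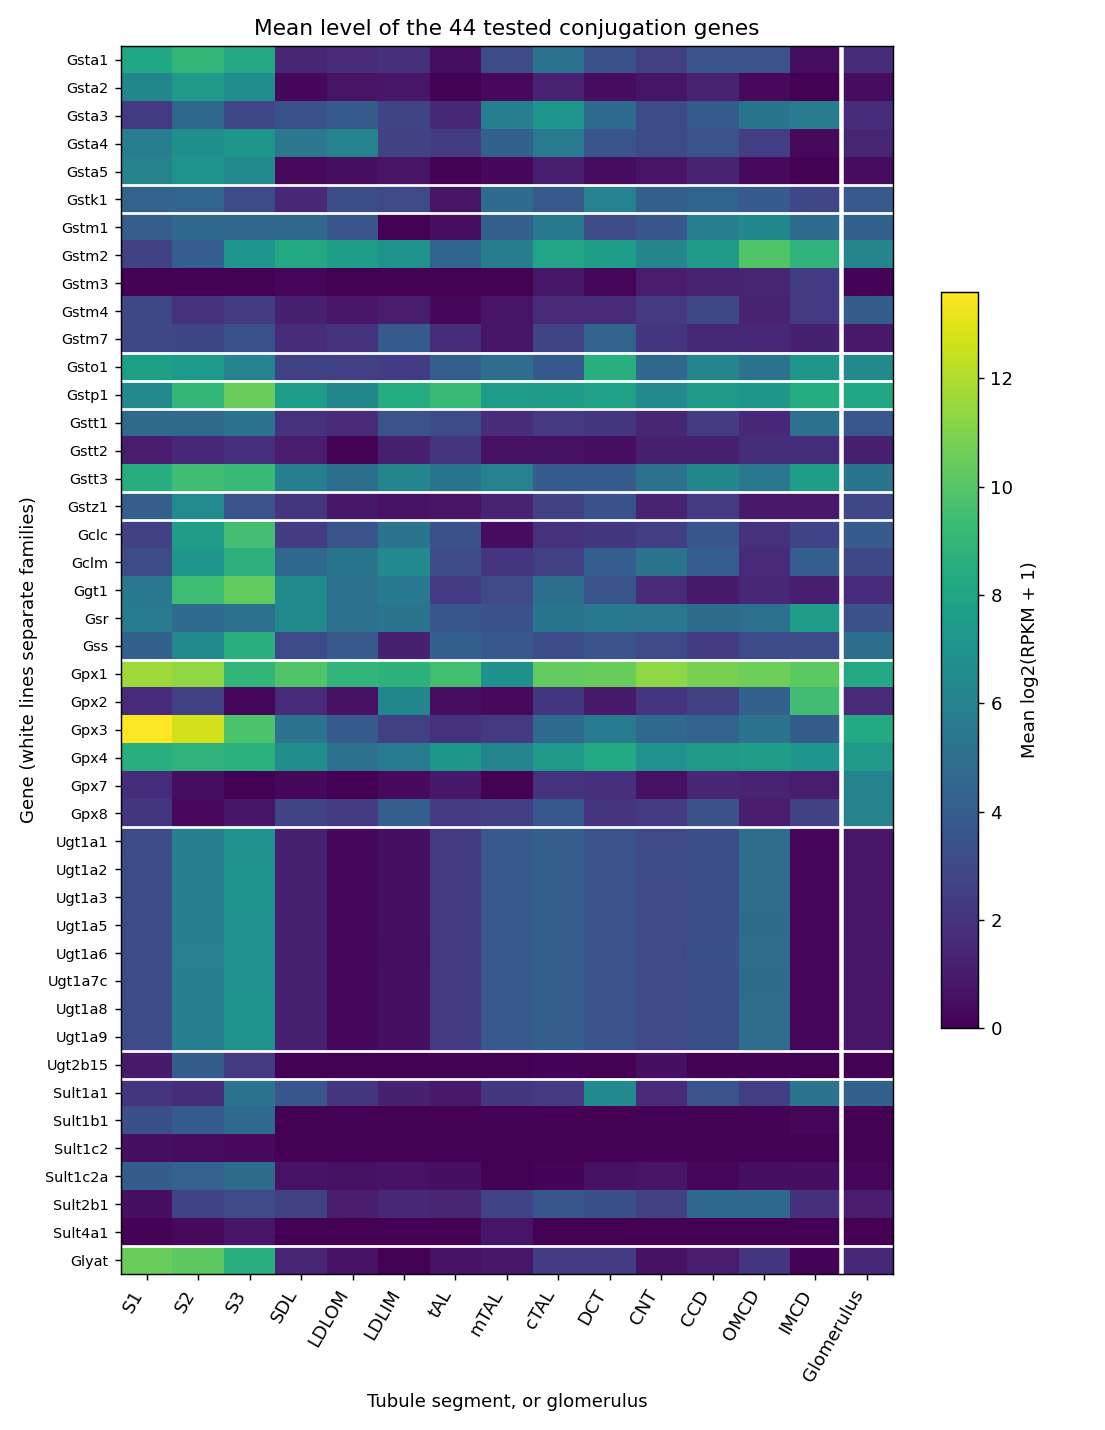
Mean log2(RPKM + 1) (colour) of the 44 tested members (rows, grouped by family) in 14 tubule segments and the glomerulus (columns). Gpx3 in S1 and S2 is the brightest, Gsta1, Gsta2, Gsta5 and Glyat are brighter in S1 to S3 than beyond, Gpx2 is bright in IMCD, and the 8 Ugt1 rows are alike.

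In the proximal tubule, genes for making, using and breaking down glutathione and for glycine and glucuronide conjugation were higher than in the rest of the tubule, whereas Gstm2, Gpx8 and Gpx2 were lower. The mean of S1, S2 and S3 was compared with the mean of the other 11 segments on the log2(RPKM + 1) scale, on which changes of low genes are understated. Calls needed both an adjusted p below 0.05 (limma, Benjamini-Hochberg) and a log2 difference of at least 1 in size. With that rule, 29 of 44 members were called, against 22.3% of all genes. Of these, 26 were higher in the proximal tubule (6.87% of all genes were) and 3 were lower (15.4% of all genes were). Without the 8 Ugt1 symbols, 18 members were higher out of 36 tested. The median log2 difference of the members was 2.44, beside -0.36 over all genes tested.

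Glyat, the mitochondrial enzyme that forms hippurate and other glycine conjugates, had a median (with lowest to highest library) of 1377 (779 to 4481) RPKM in S1, 1289 (266 to 4086) in S2 and 666 (1.80 to 2827) in S3. The lowest S3 library was number 7. Elsewhere its median was 7.19 RPKM in cTAL and at most 1.25 in the other segments. The highest libraries outside the proximal tubule were SDL number 1 at 579.7 and OMCD number 7 at 212, which are among the libraries named above for Slc34a1. LDLOM number 1, which had more Slc34a1 than either of them, had 8.58 RPKM of Glyat. Of the 84 other tubule libraries, 21 reached the lowest proximal value, that of S3 number 7. Glyat had the largest difference of all members, 8.63 ± 0.47 on the log2 scale (SE, adjusted p = 1.5e-32 by limma).

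Gpx3, the secreted plasma enzyme, was the most abundant member, with a median of 17551 (1315 to 86724) RPKM in S1, 6339 (1559 to 57784) in S2 and 572 (136 to 17014) in S3. Its lowest library in S1 was number 5, and its highest in S2 was number 6. Only 7 of the 84 other tubule libraries reached the lowest proximal value. The 3 highest of these were LDLOM number 1 at 10632, SDL number 1 at 2681 and OMCD number 7 at 2306 RPKM. They are the libraries named above for Slc34a1. In the table made without polyadenylation-site data, the Gpx3 mean over all tubule libraries was 2.67 times as high (7400.2 against 2768 RPKM), with S1 the highest segment in both. The difference between proximal and other segments was 7.97 ± 0.55 (SE, adjusted p = 5.76e-25 by limma).

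The alpha-class transferases followed with 6.15 ± 0.31 for Gsta2, 6.00 ± 0.49 for Gsta1 and 5.98 ± 0.30 for Gsta5. Gstm2 was lower in the proximal tubule, by a log2 difference of -2.70 ± 0.51 (adjusted p = 1.03e-05 by limma). For Gpx8 the difference was -1.60 ± 0.57 (adjusted p = 0.0271) and for Gpx2 -1.28 ± 0.49 (adjusted p = 0.0391). Gpx2 lost its call at a pseudocount of 0.1, without the filter, with quantile normalization and without S1 number 5 and S2 number 6, and that of Gpx8 with quantile normalization.

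Quantile normalization called 27 members higher and 1 lower in the proximal tubule, and it moved the share of higher calls among all called genes from 30.8% to 51.8%. Among leukocyte markers, 5 of 11 were also called higher in the proximal tubule. Their summed RPKM had medians of 761 in S1, 1389 in S2, 343 in S3 and 1021 in cTAL, with a range over S1 to S3 of 63.0 to 2613. Ptprc and Cd3e, which mark leukocytes and T cells, had medians of 0 in S1, S2 and S3. Cd74, an antigen presentation gene, had the highest medians of the list in S1 (581 RPKM), S2 (684) and S3 (109). The part of these cells in the result was not tested, and in bulk samples fewer cells of a type and less RNA per cell cannot be told apart.

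**Figure D2:**
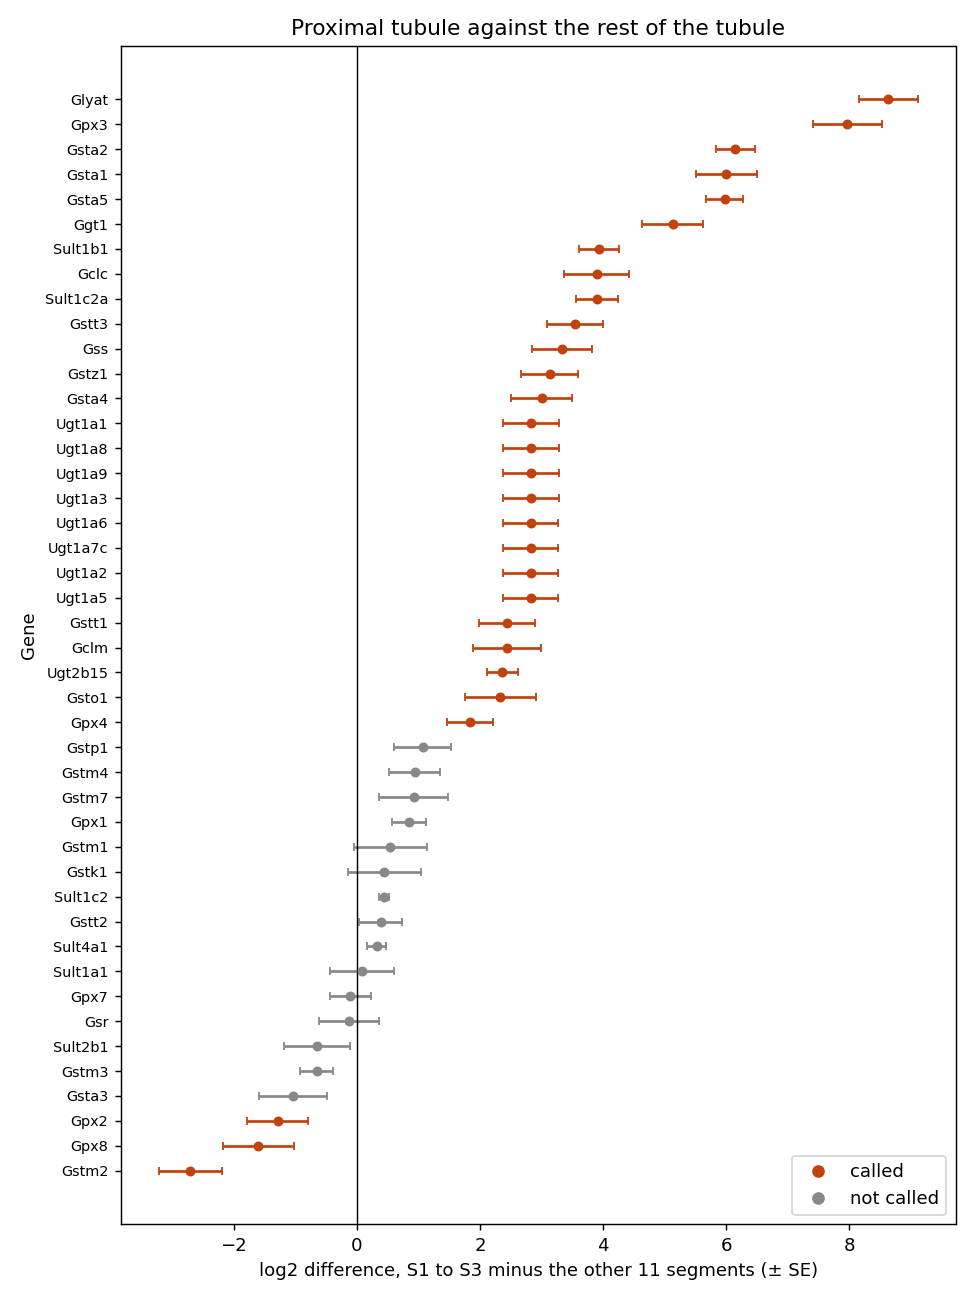
Log2 difference (horizontal axis, with SE) between S1 to S3 and the other 11 segments for the 44 tested members (rows), with called members in orange. Glyat, at 8.63, and Gpx3, at 7.97, lie farthest to the right and Gstm2, at -2.70, farthest to the left.

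The genes of glutathione synthesis were low in S1 and rose to S3. Gclc encodes the catalytic subunit of glutamate-cysteine ligase, the limiting step. In S1 it had a lowest value of 0.0193 RPKM, a median of 1.34 and a highest value of 349.8, the last in S1 number 5. In S2 the lowest was 1.12, in S2 number 6, the median 408 and the highest 829, and in S3 these values were 147, 635 and 2778. All S3 libraries were thus above all S1 libraries but number 5. From S1 to S3 Gclc rose by 6.84 ± 1.15 (SE, adjusted p = 6.07e-06 by limma), and from S1 to S2 by 4.96 ± 1.15 (adjusted p = 0.0103). Without S1 number 5 and S2 number 6 these differences were 7.81 and 7.01.

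Gclm, the modifier subunit of the same enzyme, had a median of 2.56 (0.125 to 886) RPKM in S1, of 219 (1.14 to 1109) in S2 and of 478 (54.0 to 1175) in S3. Its highest value in S1 was again that of number 5 and its lowest in S2 that of number 6. It rose by 5.54 ± 1.20 from S1 to S3 (adjusted p = 0.00109 by limma), and by 6.65 without those 2 libraries. Gss, glutathione synthetase, had a median of 32.8 (0.0904 to 92.3) RPKM in S1, 73.9 (22.4 to 259) in S2 and 593 (69.6 to 872) in S3. It rose by 4.37 ± 1.07 from S1 to S3 (adjusted p = 0.00648 by limma; 4.49 without those 2 libraries), and only S3 number 7 was within the range of S1. Outside the proximal tubule the highest segment mean of Gclc was 52.7 RPKM, in LDLIM, and that of Gclm 112, in LDLOM.

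Ggt1, gamma-glutamyltransferase of the brush border, had a median of 97.2 (3.01 to 181) RPKM in S1, 743 (134 to 2589.5) in S2 and 1394 (109 to 4968) in S3. It rose by 4.89 ± 1.07 from S1 to S3 (adjusted p = 0.00137 by limma; 5.21 without S1 number 5 and S2 number 6), with all S3 libraries but number 7 above all those of S1. Gsr, glutathione reductase, was called in none of the comparisons within the proximal tubule. Its means were 59.1 ± 49.6 in S1, 81.3 ± 83.4 in S2 and 69.4 ± 63.9 in S3 (SD, n = 7 each). Its highest mean was in IMCD, at 201 ± 62.1 RPKM (SD, n = 8), where the libraries lay between 136 and 306. In the table made without polyadenylation-site data its highest mean was in SDL instead.

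**Figure D3:**
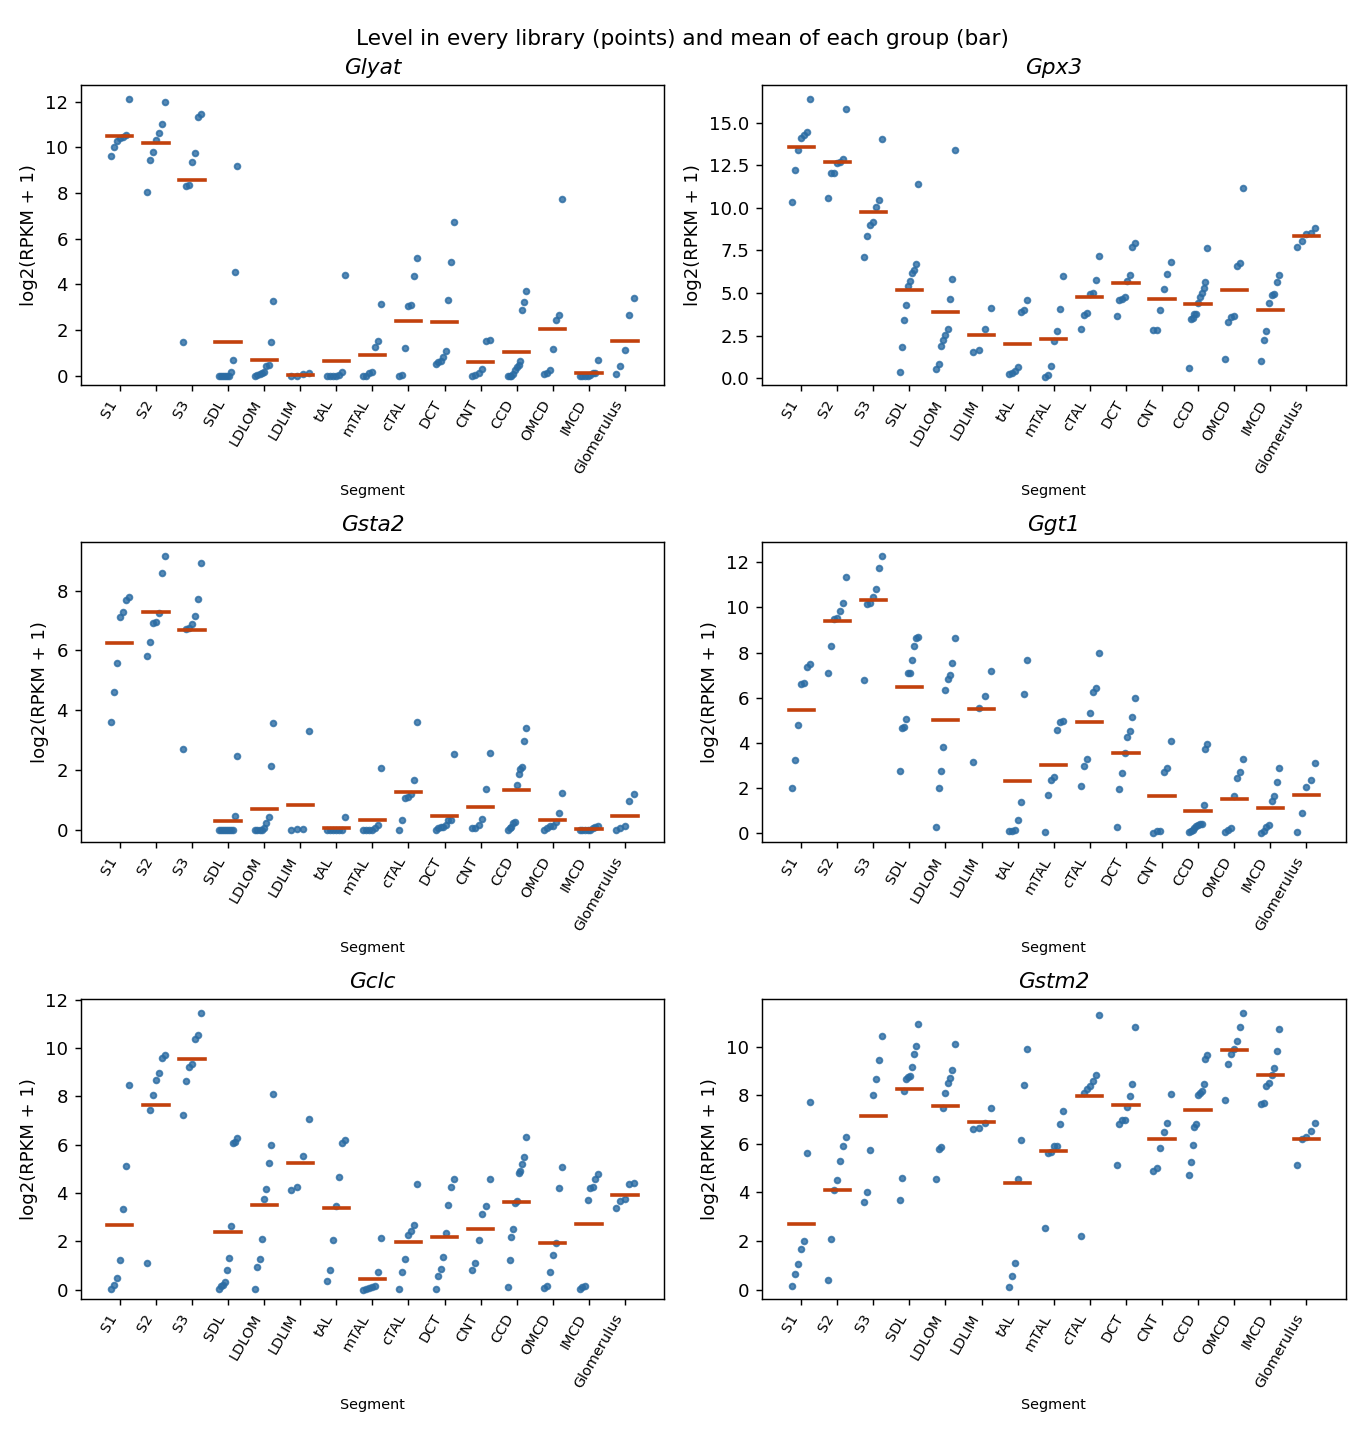
Log2(RPKM + 1) of 6 members in every library (points, sorted by value within a group) of the 14 segments and the glomerulus, with group means (bars). Glyat, Gpx3 and Gsta2 are high in S1 to S3 and low in most libraries beyond, Ggt1 and Gclc rise from S1 to S3, and Gstm2 has its lowest mean in S1 and its highest in OMCD.

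Between the ends of the proximal tubule, 15 of 44 members were called, while 1.88% of all genes were. Of the 15, 14 were higher in S3 (0.966% of all genes were) and 1, Gpx1, was lower (0.912% of all genes were). Without the 8 Ugt1 symbols, 7 members were called, and the 6 of them that were higher in S3 are Gclc, Gclm, Ggt1, Gss, Gstm2 and Gstp1. When 0.1 replaced 1 as the pseudocount, 6 of the 15 calls were kept and those of Gss and the Ugt1 symbols were lost. Without S1 number 5 and S2 number 6, 17 were called, with Gpx3 lower and Ugt2b15 higher in S3 in addition. From S1 to S2, 2 members were called, Gclc and Ugt2b15, both higher in S2, while 0.596% of all genes were called (0.46% higher in S2 and 0.135% lower). Without those 2 libraries this became 12 members, all higher in S2, with Gclm, Ggt1 and the 8 Ugt1 symbols of 1 locus added, while the calls among all genes went from 66 to 121. Gclc was no longer called from S1 to S2 when the pseudocount was 0.1, nor when libraries with fewer than 2500 genes were left out. From S2 to S3, 1 member was called, Gpx1, lower in S3, while 0.885% of all genes were called (0.226% higher in S3 and 0.659% lower).

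The classes of glutathione transferase, which join glutathione to electrophiles, predominated in different segments. In S1 the alpha class took 41.3 ± 19.2% of the summed Gst RPKM (SD, n = 7) and in S2 36.9 ± 14.2% (n = 7). The pi class, of which Gstp1 is the only member, took 40.0 ± 18.1% in S3 (n = 7), 53.0 ± 18.5% in LDLIM (n = 4) and 61.5 ± 26.5% in tAL (n = 7). The mu class took 65.9 ± 21.6% in OMCD (n = 7), 44.4 ± 18.1% in cTAL (n = 7), 40.5 ± 21.0% in SDL (n = 10) and 38.5 ± 14.3% in LDLOM (n = 9), and the omega class 37.4 ± 20.1% in DCT (n = 8). In single libraries, the most abundant transferase was most often Gsta1 in S1 (3 of 7) and the theta-class Gstt3 in S2 (4 of 7). Gstp1 was the most abundant transferase in 6 of 7 S3, 4 of 4 LDLIM, 5 of 7 tAL and 5 of 5 glomerulus libraries. Gstm2 was so in 6 of 7 OMCD, 6 of 10 SDL, 6 of 9 LDLOM and 6 of 11 CCD libraries, and Gsto1 in 6 of 8 DCT libraries. These shares describe RPKM, which is per length, and were not tested.

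**Figure D4:**
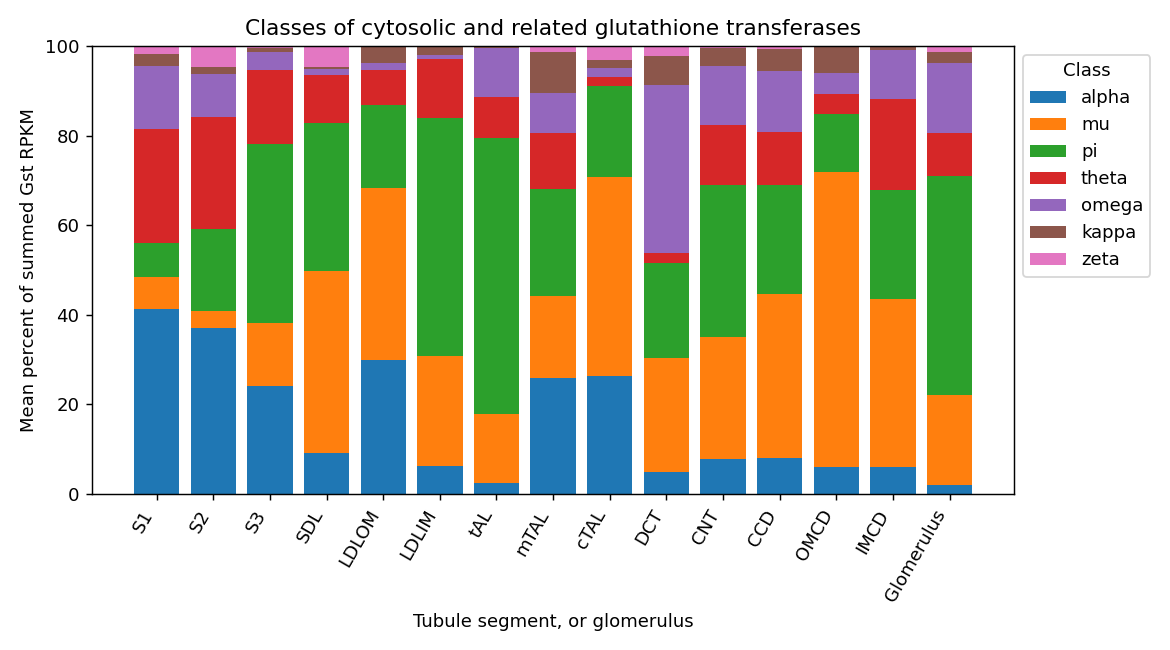
Mean share (vertical axis, percent of the summed RPKM of 22 Gst symbols) of the transferase classes in each segment and the glomerulus (bars). Alpha is the largest part of S1 and S2, pi of S3, LDLIM, tAL and the glomerulus, mu of OMCD, cTAL, SDL and LDLOM, and omega of DCT.

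In the alpha class, 4 of 5 members were called higher in the proximal tubule. Gsta1 had 449 ± 309 RPKM in S1, 579 ± 264 in S2 and 684 ± 542 in S3 (SD, n = 7 each), and at most 54.3 on average elsewhere in the tubule, in cTAL. Gsta2 had 114 ± 86.2, 212 ± 192 and 166 ± 151 RPKM in S1, S2 and S3, with a lowest proximal library of 5.54, and 5 of the 84 other tubule libraries reached that value. The near-copy Gsta5 followed Gsta2, with a median ratio of the higher to the lower of 1.20 over 41 libraries. Reads of genes this alike could be split between them, so their separate levels are uncertain. Gsta4, known to conjugate the lipid aldehyde hydroxynonenal, was also high in the descending limbs. Its mean was 183 ± 136 in S3 (SD, n = 7), 126 ± 99.6 in LDLOM (n = 9) and 123 ± 156 in SDL (n = 10), and 0.289 ± 0.318 RPKM in IMCD (n = 8).

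Gsta3 was the alpha-class member with its highest means in the thick limb. Its mTAL libraries lay between 1.43 and 919 RPKM around a median of 89.1, and its cTAL libraries between 89.3 and 298 around a median of 121. In S1 they lay between 0.316 and 18.9, so that no S1 library reached any cTAL library. Its difference between proximal and other segments, -1.04 ± 0.55 (SE, adjusted p = 0.143 by limma), did not pass the test.

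Gstp1, the abundant pi-class transferase, rose along the proximal tubule. Its median was 139 (4.28 to 283) RPKM in S1, 851 (111 to 1030.4) in S2 and 1662 (229 to 3976) in S3. The S3 libraries other than number 7 were above all S1 libraries. The rise from S1 to S3 was 4.00 ± 1.01 (SE, adjusted p = 0.00952 by limma), and 3.90 without S1 number 5 and S2 number 6. It reached 1 RPKM in every tubule library but SDL number 1, and its difference between proximal and other segments did not pass the test (1.07 ± 0.46, adjusted p = 0.0691).

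Gstm2, a mu-class transferase, was low in S1 and S2 and highest in OMCD. Its median was 2.19 (0.107 to 209) RPKM in S1, 21.6 (0.322 to 77.4) in S2 and 256 (11.0 to 1405) in S3. In SDL it was 436 (11.9 to 1979), in cTAL 335 (3.63 to 2560.2) and in OMCD 976 (226 to 2702). All OMCD libraries were above all S1 and S2 libraries. From S1 to S3 it rose by 4.45 ± 1.11 (SE, adjusted p = 0.00888 by limma), and by 4.02 without S1 number 5 and S2 number 6. The call was lost in the table made without polyadenylation-site data. The highest S3 library was number 7, which also had the most thin limb marker RNA of S3. The summed RPKM of the thin limb markers had a median of 96.8 in S1 and 1792 in S3, and 1 of the 8 was called higher in S3. Their part in the rise was not tested. Gstm1 also had its highest mean in OMCD, at 306 ± 283 RPKM (SD, n = 7). Gstm4 and Gstm7 reached means of at most 24.7 and 57.5 RPKM in a segment.

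Among the other classes, Gsto1, a thiol transferase of the omega class, had its highest mean in DCT, 461 ± 416 RPKM (SD, n = 8), where the lowest library had 208. In CNT, the next segment, its mean was 101 ± 130.0 (n = 6), with a range of 0.0697 to 299 that overlapped the DCT libraries. It was also high in S2, with 389 ± 521 (n = 7), and was called higher in the proximal tubule by 2.33 ± 0.57 (SE, adjusted p = 0.000891 by limma). Gstt3, of the theta class, was a major proximal transferase with 387 ± 152 RPKM in S1, 733 ± 269.9 in S2 and 715 ± 495 in S3 (n = 7 each). Outside the proximal tubule its highest mean was in IMCD, 233 ± 142 (n = 8). Gstz1, the maleylacetoacetate isomerase of tyrosine breakdown, had its highest mean in S2, at 181 ± 220.3 (n = 7), and was called higher in the proximal tubule by 3.13 ± 0.47 (SE, adjusted p = 2.67e-08 by limma). Gstk1, the kappa-class enzyme of mitochondria and peroxisomes, varied up to 534 RPKM in OMCD and was not called between proximal and other segments. The theta-class genes Gstt1 and Gstt2 had highest means of 59.7 RPKM in IMCD and 8.14 in OMCD.

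Glutathione peroxidases reduce peroxides with glutathione, and the family split between segments. Gpx3, described above, was the most abundant member, and with it Gpx1 and Gpx4 had their highest means in the proximal tubule. Gpx2 had its highest mean in IMCD and Gpx8 in SDL.

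Gpx1, the cytosolic enzyme, was above 1 RPKM in every tubule library. Its median was 3421 (799 to 12595) RPKM in S1, 2344 (709 to 6381) in S2 and 558 (111 to 4388) in S3, and in CNT it was 3092 (1068 to 4410.0). The ranges of S1, S2 and S3 overlapped, with S3 number 5 the high library of S3. It was lower in S3 than in S1, with a log2 difference of -2.65 ± 0.61 (SE, adjusted p = 0.00327 by limma; -2.97 without S1 number 5 and S2 number 6), and than in S2, with -2.38 ± 0.61 (adjusted p = 0.0238). The second of these calls was lost without S1 number 5 and S2 number 6 (adjusted p = 0.084, with Ugt2b15 called lower in S3 instead) and with only S2 and S3 in the fit. Between proximal and other segments its difference of 0.85 ± 0.28 (adjusted p = 0.0167) was under the size limit. Gpx4, which acts on lipid peroxides, was higher in the proximal tubule by 1.84 ± 0.37 (adjusted p = 4.21e-05 by limma), with means of 546 ± 434 in S1, 652 ± 635 in S2 and 664 ± 637 in S3 (SD, n = 7 each).

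Gpx8, an enzyme of the endoplasmic reticulum, had a mean of 159 ± 418 RPKM in SDL (SD, n = 10) that rested on number 7 at 1337 and number 1 at 193, while the median was 0.353. Both of these SDL libraries had fewer than 2500 genes. Gpx5 and Gpx6 stayed below 1 RPKM in every tubule library.

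The 8 Ugt1 symbols, glucuronosyltransferases of bilirubin and phenols, had nearly the same values. The ratio of the highest to the lowest of the 8 had a median of 1.02, and at most 1.82, in the 74 libraries where at least 1 of them reached 1 RPKM, and log2 values correlated at 0.999 or more between any 2 of them. The table therefore does not separate the isoforms, and Ugt1a1 is given for the locus. Its median was 3.47 (0.114 to 423) RPKM in S1, 88.5 (1.75 to 344) in S2 and 90.9 (13.5 to 859) in S3. The highest S1 library was number 5, and the 6 others had at most 26.1. From S1 to S3 it rose by 3.77 ± 0.98 (SE, adjusted p = 0.0139 by limma), and by 4.71 without S1 number 5 and S2 number 6. The call was lost when the pseudocount was 0.1, in the libraries with at least 2500 genes and with only S1 and S3 in the fit. In the descending limbs of long loops it was low, with at most 1.06 RPKM in LDLOM and 3.10 in LDLIM. In OMCD it reached 136, in number 7, which also held proximal RNA.

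Of 9 Ugt2 symbols, whose enzymes act on steroids, bile acids and drugs, 1 passed the filter. Ugt2b15, whose accession RefSeq now assigns to Ugt2b35, had 35.7 ± 37.6 RPKM in S2, 12.7 ± 23.1 in S3 and 6.47 ± 16.6 in S1 (SD, n = 7 each). The S1 mean rested on number 5 at 44.1, and the other 6 S1 libraries had at most 0.899. It rose from S1 to S2 by 3.05 ± 0.54 (SE, adjusted p = 0.00019 by limma), and by 4.34 without S1 number 5 and S2 number 6. The call was lost with only S1 and S2 in the fit. Outside the proximal tubule no segment mean exceeded 1.31 RPKM, in CNT.

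Of 14 sulfotransferases, 6 passed the filter and 2 were called higher in the proximal tubule. Sult1b1, known for thyroid hormones and phenols, had 39.1 ± 51.1 RPKM in S1, 72.4 ± 132 in S2 and 68.5 ± 76.7 in S3 (SD, n = 7 each), each group with a lowest library at 0, and its highest library elsewhere in the tubule had 1.92. Its difference was 3.93 ± 0.33 (SE, adjusted p = 6.17e-20 by limma), and that of Sult1c2a, with 37.6 ± 48.2, 47.1 ± 47.3 and 86.5 ± 126 RPKM in S1, S2 and S3, was 3.90 ± 0.34 (adjusted p = 2.2e-18). Sult1a1, the phenol sulfotransferase, was instead highest in DCT, with 129 ± 94.7 RPKM (n = 8). Its S3 mean of 113 ± 231 (n = 7) rested on 1 library at 636, the S3 median being 31.7. Sult2b1, which acts on cholesterol and related sterols, had its highest mean in CCD, 55.3 ± 73.1 RPKM (n = 11), and was not called between proximal and other segments. Sult1d1, Sult1e1, Sult2a1, Sult2a2 and Sult2a6 were listed at 0 in every tubule library.

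Gpx2 was higher in the inner than in the outer medulla, both in the descending limb of long loops and in the collecting duct. It encodes the peroxidase best known from the gut lining. In the descending limb of long loops it had 189, 460.2, 351 and 0.140 RPKM in the 4 LDLIM libraries, against a median of 0.00615 (0 to 7.41) in the 9 LDLOM libraries. The LDLIM libraries other than number 4 were above all LDLOM libraries. The difference of 5.68 ± 1.20 (SE, adjusted p = 0.00117 by limma) was the only call among 44 members, while 2.71% of all genes were called (2.66% higher in LDLIM and 0.0451% lower). With only these 2 groups in the fit none was called, Gpx2 having an adjusted p of 0.0503 by limma, and quantile normalization called 3, with Gss and Gsta4 lower in LDLIM in addition.

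In the OMCD, its values were 1293, 209, 66.9, 1.21, 14.7, 0.188 and 0 RPKM in libraries 1 to 7, and in IMCD the lowest was 338, the median 637 and the highest 1996. Only OMCD number 1 lay within the range of IMCD. In CCD, Gpx2 had a median of 4.55 (0.0671 to 85.1) RPKM, in CNT of 4.37 (0 to 50.0) and in cTAL of 2.79 (0 to 40.1). Gpx2 rose by 5.23 ± 1.03 from OMCD to IMCD (SE, adjusted p = 0.000119 by limma). Gstt1, of the theta class, had a median of 0.167 (0.0527 to 21.8) RPKM in OMCD and of 43.5 (1.71 to 165) in IMCD, with overlapping ranges, and rose by 3.63 ± 0.95 (adjusted p = 0.00619 by limma).

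The Ugt1 locus went the other way. Ugt1a1 had 29.2, 97.9, 33.2, 0.183, 14.6, 59.1 and 136 RPKM in OMCD libraries 1 to 7, and in IMCD 7 of 8 libraries had at most 0.0667 and number 7 had 2.10. OMCD number 7, the highest, also held proximal RNA (286 RPKM of Slc34a1), whose part in this value was not tested. The OMCD libraries other than number 4 were above all IMCD libraries. It was lower in IMCD by a log2 difference of -4.61 ± 0.95 (SE, adjusted p = 0.000232 by limma). In all, 10 of 44 members were called between these ducts, the 8 Ugt1 symbols among them, while 7.47% of all genes were. Higher in IMCD were 2 (6.48% of all genes) and lower were 8 (0.993% of all genes).

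All 8 intercalated cell markers were also called lower in IMCD. The sum of 7 of them, without Car2, was 1009 to 2660.0 RPKM in OMCD and 0.0130 to 119 in IMCD. In IMCD number 7, the library with the most Ugt1a1, Atp6v1g3 was 60.6, and in the others at most 21.3. Atp6v1b1 was 47.2 there, and in the others at most 9.11. Slc4a1 went the other way, with 9.50 in number 7 and 22.1 in number 1, where Ugt1a1 was 0.0667. OMCD number 4, which had the least Ugt1a1 of OMCD (0.183), had 886 RPKM of Atp6v1g3 and 181 of Atp6v1b1. Both were within the range of the other OMCD libraries, whereas its Slc4a1, at 42.6 RPKM, was the lowest of OMCD. The part of intercalated cells in the difference was not tested. In CCD, whose 11 libraries held 1159 to 3723 RPKM of these markers, Ugt1a1 was between 1.02 and 47.9.

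**Figure D5:**
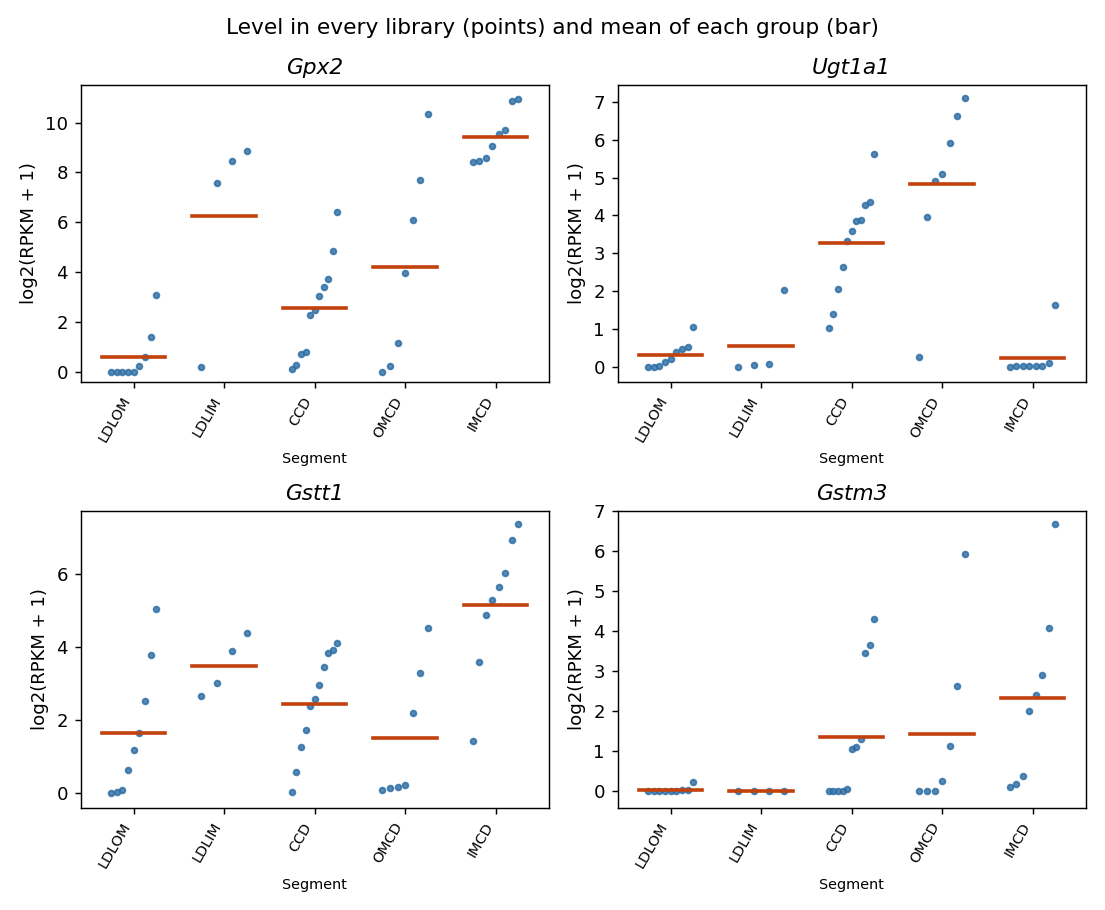
Log2(RPKM + 1) of Gpx2, Ugt1a1, Gstt1 and Gstm3 in every library (points, sorted by value within a group) of LDLOM, LDLIM, CCD, OMCD and IMCD, with group means (bars). Gpx2 is high in 3 of 4 LDLIM and all IMCD libraries, and Ugt1a1 is near 0 in 7 of 8 IMCD libraries.

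From the thick limb and DCT to the connecting tubule and collecting duct, 6 of 44 members were called, while 8.49% of all genes were. Higher in CNT and the ducts were Gpx2 (3.40 ± 0.56, SE), Gpx1 (1.53 ± 0.32), Gstt3 (1.49 ± 0.52) and Gstm3 (1.20 ± 0.30), against 5.96% of all genes. Lower were Ggt1 (-2.50 ± 0.56) and Gsta4 (-2.12 ± 0.56), against 2.53% of all genes. Gstt3, at an adjusted p of 0.0498 by limma, was lost when the pseudocount was 0.1, without the filter and in the table made without polyadenylation-site data, and Gstm3 in that table. Quantile normalization called 18 members, 4 higher and 14 lower, with Gsta1, Gsta3, Gstk1, Gstz1 and the 8 Ugt1 symbols lower in addition, and it moved the share of higher calls among all called genes from 70.2% to 45.9%. Gstm3, a mu-class gene, had a median of 0.0392 RPKM in cTAL, 0.206 (0 to 59.9) in OMCD and 3.67 (0.0746 to 101) in IMCD. Of 11 leukocyte markers, 8 were lower in CNT and the ducts, with a median sum of 1021 RPKM in cTAL and 16.3 in IMCD. Their part in these differences was not tested.

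Compared with glomeruli, the filters that precede S1, the proximal tubule had higher levels of 22 of 45 tested conjugation genes and lower levels of Gpx7 and Gpx8. Of 45 members tested, 24 were called, while 53.3% of all genes were. Higher in the proximal tubule were 22 (4.03% of all genes) and lower were 2 (49.2% of all genes). Without the 8 Ugt1 symbols of 1 locus, 14 members were higher out of 37 tested. Glyat, at 0.350, 0.0446, 5.27, 1.17 and 9.53 RPKM in the 5 glomeruli, was lower there than in all proximal libraries but S3 number 7, and differed by 8.22 ± 0.94 (SE, adjusted p = 8.72e-13 by limma). The next differences were 6.74 ± 0.98 for Gsta1, 6.71 ± 0.98 for Ggt1, 6.26 ± 0.59 for Gsta2 and 6.09 ± 0.57 for Gsta5.

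Gpx7, a peroxidase of the endoplasmic reticulum, had 85.3, 32.1, 77.0, 63.9 and 95.9 RPKM in the glomeruli, against medians of 0.670 in S1, 0 in S2 and 0.0428 in S3. Gpx8 had 75.0, 77.6, 144, 54.3 and 27.0 RPKM there, against 0.188, 0.260 and 0.299. The highest S1 libraries, at 36.8 for Gpx7 and 165 for Gpx8, overlapped the glomeruli. Gpx7 was lower in the proximal tubule, with a log2 difference of -5.29 ± 0.68 (SE, adjusted p = 9.7e-11 by limma) and so was Gpx8, with -5.00 ± 1.15 (adjusted p = 0.000172). Gpx3 had 209, 374, 356, 262 and 448 RPKM in the glomeruli, above the median of every segment but S1, S2 and S3. The median log2 difference over all genes was -1.61, glomeruli having 8818 to 9483 genes at 1 RPKM or more, and quantile normalization brought it to 0.095 and called 34 members, 32 of them higher in the proximal tubule. Markers of podocytes (7 of 7), endothelium (9 of 9), mesangium and fibroblasts (6 of 8) and leukocytes (6 of 11) were higher in glomeruli, with podocyte sums of 1397 to 4352 RPKM there. Their part in these differences was not tested.

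Water load called no member in CCD. Of 38 members tested, 0 passed an adjusted p of 0.05 (limma), while 0.153% of all genes did (0.0942% higher and 0.0589% lower under water load), and 1 had an unadjusted p under 0.05, as did 632 of all genes. That member was Gpx3, with 427, 31.7, 63.3 and 56.8 RPKM in the controls and 18.6, 31.5, 61.3 and 28.5 under water load. The groups overlapped, and only control number 1 was far above the others. In that library the full list of proximal markers, here with Aqp1, summed to 318 RPKM, against 8.22 to 18.9 in the other 7. Glyat (34.9) and Ggt1 (28.1) were also highest there. The part of proximal RNA in the Gpx3 difference was not tested. Its log2 difference was -1.37 ± 0.62 (SE, adjusted p = 0.668 by limma). Gpx1 had 2037, 1136, 1659 and 3626 RPKM in the controls and 2282, 1989, 3785 and 4538 under water load, also overlapping. The titles number the rats of each group and do not state pairs. With these numbers as a block, 0 members were called as well.

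Genes that supply or follow conjugation were described from lists named for their role. In the mercapturate pathway, which turns glutathione conjugates into mercapturic acids, 8 of 14 genes were called higher in the proximal tubule and none lower, with Nat8 (3.76 ± 0.33, SE), Acy3 (3.70 ± 0.43) and Anpep (3.49 ± 0.43) the largest. Of all genes, 6.87% were higher and 15.4% lower. From S1 to S3, 3 of these 14 rose (0.966% of all genes did), Anpep by 4.92 ± 0.94, Acy3 by 3.84 ± 0.94 and Nat8 by 2.88 ± 0.71. Of 7 genes of cysteine supply, 5 were higher in the proximal tubule, led by Slc3a1 (5.17 ± 0.40), Cbs (5.02 ± 0.38) and Cth (3.95 ± 0.49). Of 10 genes of amino acid conjugation and other conjugating enzymes, 7 were higher there, with Acsm2a (6.95 ± 0.35), which activates acids for glycine conjugation, the largest. Of 5 efflux transporters, 1 was higher, Abcg2 (2.92 ± 0.26), and of 8 genes of donor supply, 1, Slc35d1 (1.49 ± 0.34).

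The list of Nrf2 and redox genes was mixed: 4 of 19 were higher in the proximal tubule and 1, Nfe2l2 itself, which encodes Nrf2, was lower (-2.51 ± 0.54, adjusted p = 0.000132 by limma), beside 6.87% higher and 15.4% lower among all genes. Hmox1, heme oxygenase, was higher in LDLIM than in LDLOM by 4.74 ± 0.96 (SE, adjusted p = 0.0006) and in IMCD than in OMCD by 4.97 ± 0.82 (adjusted p = 2.76e-06). Its median was 108 (0.0285 to 219) RPKM in LDLIM and 61.1 (0 to 255) in IMCD, and 0 in LDLOM and OMCD. Of the 7 other glutathione transferases tested, which are microsomal or related proteins, 2 were higher in the proximal tubule, Mgst1 (3.83 ± 0.58) and Mgst3 (2.03 ± 0.43), and 2 were lower, Ptges and Clic1. Mgst2 was higher in IMCD than in OMCD by 4.33 ± 0.37 (adjusted p = 2.08e-17 by limma), with a median of 22.2 (0 to 142) RPKM in IMCD and at most 0.0630 in an OMCD library.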

How the data were processed

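The authors deposited RPKM per RefSeq transcript in 2 tables covering segments and glomeruli, one of them made with polyadenylation-site data, and in 1 table of the water-load experiment. Build rn5, HOMER, SAMtools, STAR 2.3.0-r192 and Trimmomatic 0.32 were used, per the submitters' processing notes. Order, settings and the role of the polyadenylation data were not given in the sources used here. Reads were paired, 50 nt, per the labels' protocols. The deposited tables have 17974 entries (water load 17975, of which 1 has no symbol); 9 have no glomerulus value. Per library, the tables correlated at 0.917 to 0.967 across genes for tubules but at 0.0086 to 0.0137 for glomeruli, so the second was an alternative for tubules only. Of the 44 tested members, 28 were within 1.5-fold between tables, 0 differed by over 4-fold and 43 peaked in the same segment. RPKM hold no counts; relative depth ranged from 0.115 to 1.636.

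Groups follow the labels. Genes that reached 1 RPKM in 4 or more libraries were fitted as log2(RPKM + 1) with limma 3.58.1 in R 4.3.3 (trended moderated test, two-sided), all segment libraries in 1 fit, with the 5 glomeruli for their comparison, and the 8 water-load libraries alone. P-values were adjusted by Benjamini-Hochberg over all genes of a comparison. Water load was called without a limit on size. The fit was tested on simulated data. The members, the 17 partner and marker lists and the tests were chosen with earlier results of these data known. The text names called members, up to 5 per direction, the 4 members of a family with the highest segment means, all glutathione genes and Glyat, and up to 3 called genes of a partner list; others were named after their values were seen. Alternatives were the second table, quantile normalization, 0.1 as pseudocount, no filter, the replicate block, single groups, left-out libraries and, chosen after seeing the data, leaving out S1 number 5 and S2 number 6. Numbers counted as pairing where every same-numbered pair of residuals correlated above 0.1. That held for water load only (0.209 to 0.313 over 4 pairs), whose titles number rats but state no pairs. The fit without a block was kept as the main one. Symbols were checked against RefSeq: 65 of 67 accessions were found and 63 carry the same symbol. Promoters are those of RefSeq for GRCr8, another build than rn5, so no coordinates of the tables were used. Plots came from matplotlib 3.10.9, and tables from pandas 2.3.3 with numpy 2.4.6 under Python 3.11.15.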

Additional observations from a re-analysis of the deposited data

Results flagged for a closer look

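A library stood far from the others of its segment in 7 of 28 sets of values behind the called differences between segments, by Dixon's test on log2(RPKM + 1). Over all tested members, with Ugt1a1 for its locus, and all groups of 4 to 10 libraries, 107 of 500 sets had such a library. The test gives about 1 in 20 by chance only where values are normally spread. Some sets lay mostly near the floor of the scale, among them Gpx2 in LDLOM and Ugt1a1 in IMCD. The rate by chance in such sets was not estimated, so neither count can be read as an excess.

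In S1, number 5 was the highest for Ugt2b15 (44.1 RPKM), and it also held the highest Gclc, Gclm, Ugt1a1 and Slc7a13 of the segment. Number 3 was the lowest for Gstp1 (4.28 RPKM). In S2, number 6 was the lowest for Gclc (1.12 RPKM), and it had the least Slc7a13 and the most Gpx3 of the segment. In S3, number 7 was the lowest for Ggt1 (109 RPKM), and by the same test also for Glyat, Gsta1 and Gsta2, and it had the most thin limb marker RNA of the segment (10754 RPKM). In the long descending limbs, LDLIM number 4 was the lowest for Gpx2 (0.140 RPKM) and LDLOM number 7 the highest (7.41 RPKM). In IMCD, number 7 was the highest for Ugt1a1 (2.10 RPKM).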

How the results depend on the processing

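Of the single genes called in a comparison, 691 of 734 values under alternatives stayed past the threshold, 43 kept the direction but lost the call, and none reversed. Each Ugt1 symbol was counted separately here, though they form 1 locus with nearly the same values. Counts of members called moved by over 1.5 times as follows. From S1 to S2, 2 became 1 both at a pseudocount of 0.1 and without libraries under 2500 genes, and 12 without S1 number 5 and S2 number 6, an alternative chosen after seeing the data. From S2 to S3, 1 became 2 without libraries under 2500 genes, with Ugt2b15 added. From S1 to S3, 15 became 6 at a pseudocount of 0.1, and 8 without libraries under 2500 genes or with only these groups in the fit, each time with the Ugt1 symbols lost (and Gpx3 added in the last 2 settings). From LDLOM to LDLIM, 1 became 3 with quantile normalization and 0 with only these groups. From the thick limb and DCT to the ducts, 6 became 18 with quantile normalization. The cause of these changes was not tested. Leaving out each LDLIM library gave 1 to 1 members, each glomerulus 23 to 25 and each water-load library 0 to 0. Quantile normalization moved the median of all genes from -0.36 to -0.09 for the proximal tubule, from 0.55 to -0.014 for OMCD to IMCD and from 0.59 to -0.053 for LDLOM to LDLIM.

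With the replicate number as a block, members called were 38 for any segment, 30 for the proximal tubule (Gstp1 added), 2, 1 and 15 within it, 1 in LDLIM, 6 for the ducts, 11 for IMCD (Gsta1 added), 25 against glomeruli (Gstm4 added) and 0 under water load, where all genes called went from 13 to 29. Outside water load the numbers did not meet the rule for pairing. From S1 to S2 the lowest correlation of same-numbered residuals was -0.123 and the highest 0.724. Whether single pairs share a source was not tested.

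Without read counts, precision by depth is unknown. Values of 0 are given as listed, and lower expression cannot be told from none.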
